A study of Gallus gallus with 8 samples.

Results

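STC2, EDN1, BNIP3, BNIP3L, ADM, DDIT4 and PDK1 are genes that low oxygen is known to induce outside the glycolytic pathway. They were taken by symbol from a table of 15873 genes measured in embryonic hearts of the chicken. The symbols of 6 of the 7 genes have a row each. DDIT4, a restraint on the growth kinase complex mTORC1, is not among the symbols and is not analysed here. The study sequenced messenger RNA from hearts at 16 days of incubation in 8 libraries, 2 from each of 4 breeds, beside genome sequencing for signs of selection that is not analysed here. Linzhi Tibetan and Lhasa White are named after places in Tibet and are called highland breeds here, and Chahua and White Leghorn (spelled White leghom in the labels) lowland breeds, with 4 libraries a side. The labels give no treatment, oxygen level, altitude of incubation or sex, nor do they tie a library to an embryo, so p-values cover only library-to-library spread, part of which may be technical. With 2 breeds a side, altitude of origin and breed cannot be told apart.

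In cells with enough oxygen, prolyl hydroxylases mark the alpha subunits of hypoxia-inducible factor for destruction. When oxygen falls, the subunits persist, pair with ARNT and switch on target genes. An avian embryo takes up oxygen by diffusion through the shell, so the oxygen of the surrounding air reaches it directly. The products of the genes described here act at different places. STC2, EDN1 and ADM are secreted, BNIP3 and BNIP3L sit in the outer mitochondrial membrane, and PDK1 is a kinase of the mitochondrial matrix. These roles are known mainly from mammals.

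The libraries held 17245669 to 22157553 mapped reads, as recovered from the deposited values. Each of the 6 genes had 153 or more reads in every library, and BNIP3L had up to 3489. Levels are given as RPKM, reads per kilobase of gene model, scaled to the mapped reads of the library. Some libraries stood apart in chamber and sex-linked transcripts. In chicken hearts MYH7 is an atrial myosin heavy chain, and Lhasa White 2 held 1457 RPKM of it and Chahua 2 held 115, with at most 7.07 elsewhere. BMP-10, KCNJ5, NR2F1 and NR2F2 of the atrial list were likewise highest in Lhasa White 2 and next in Chahua 2. Other genes of the list were not: NPPA was highest in Linzhi Tibetan 2, at 2717 RPKM, with 1690 in Lhasa White 2, and GJA5 and TBX5 were lowest in Chahua 2, at 49.4 and 41.8 RPKM. The ventricular sum was lowest in Lhasa White 2, at 18244 RPKM, and highest in Chahua 2, at 34585. The matrix gene list summed to 6892 RPKM in Lhasa White 2 and to 2241 to 3245 in the other 7 libraries, and 13 cardiomyocyte genes, 11 of them with a row, summed to 15182 RPKM in Lhasa White 2 and to 18540 to 21123 in the others. All 11 of those cardiomyocyte rows were at 1 RPKM or more in every library, which is how the labelled tissue was checked. W-linked transcripts, which only females carry, summed to 815 to 981 RPKM in Lhasa White 2, both Chahua libraries and White Leghorn 1, and to at most 8.33 in the other 4. In RNA from heart tissue, fewer cells of a type and less RNA per cell cannot be told apart. Whether the libraries hold the chambers in equal parts was not tested.

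The 6 genes spanned a wide range of levels. BNIP3 averaged 112 ± 17.5 RPKM, PDK1 82.98 ± 14.0, BNIP3L 40.6 ± 6.51, ADM 24.6 ± 16.9, STC2 14.1 ± 3.98 and EDN1 6.25 ± 1.84 RPKM (SD, n = 8 libraries). BNIP3 and PDK1 lay above 95.1% and 93.5% of the 11556 genes tested, and EDN1 above 36.5%. BNIP3 exceeded PDK1, PDK1 exceeded BNIP3L, and STC2 exceeded EDN1 in 8 of 8 libraries. ADM and STC2, neighbours in this order, changed places between libraries, with ADM the higher in 5 of 8. Gene models limit such comparisons of level, since the lengths recovered from the values ran from 687 bases for BNIP3 to 3501 for BNIP3L. ADM varied most over libraries, with its highest value 5.56 times its lowest. This ratio was 2.42 for EDN1, 2.36 for STC2, 1.77 for BNIP3, 1.57 for PDK1 and 1.47 for BNIP3L.

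**Figure D1:**
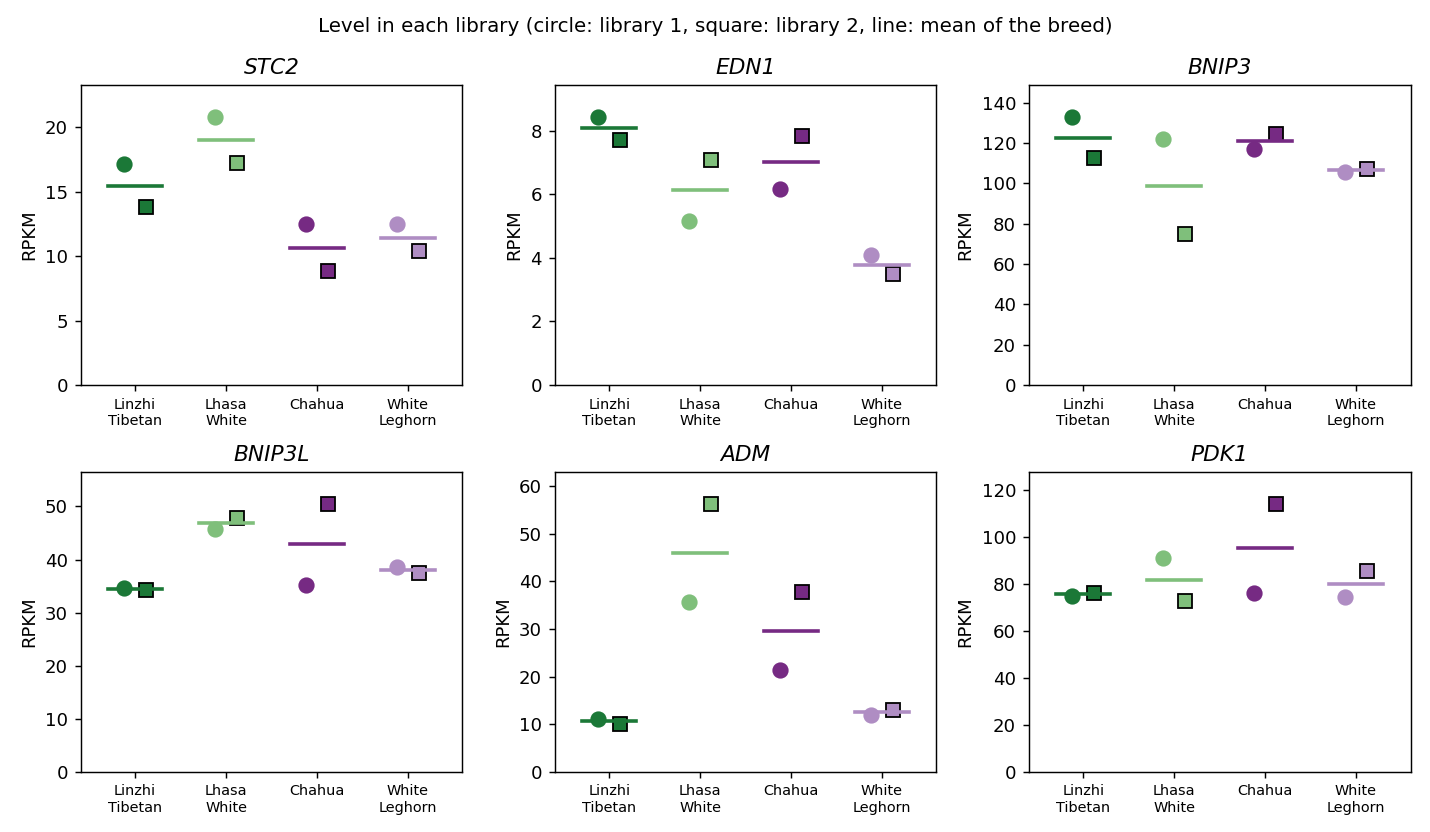
RPKM of the 6 genes in each library, on axes that start at 0. Circles are library 1 and squares library 2 of a breed, and lines are breed means. ADM lay between 21.3 and 56.3 RPKM in Lhasa White and Chahua and between 10.1 and 12.9 in Linzhi Tibetan and White Leghorn.

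Among the secreted factors, STC2 was the gene whose highland and lowland libraries did not overlap. STC2, stanniocalcin 2, is a glycoprotein that in mammals binds and inhibits the protease PAPP-A. The Linzhi Tibetan libraries gave 17.2 and 13.8 RPKM and those of Lhasa White gave 20.8 and 17.2. The Chahua libraries gave 12.5 and 8.82 RPKM and those of White Leghorn gave 12.5 and 10.4. Chahua and White Leghorn overlapped. Both Lhasa White libraries lay above both Linzhi Tibetan libraries, but barely. Lhasa White 2 had 17.214 RPKM (392 reads) and Linzhi Tibetan 1 had 17.153 RPKM (417 reads), which are nearly equal. Every highland library was above every lowland one. Of all genes tested, 0.935% were likewise higher in every highland library. The share in which both Lhasa White libraries lay above both Linzhi Tibetan libraries was not counted. The highland mean was 17.2 ± 2.86 RPKM and the lowland mean 11.04 ± 1.78 (SD, n = 4). The log2 difference was 0.60 with a 95% interval of 0.24 to 0.95, and did not pass the test across all genes (limma adjusted p = 0.999). W-linked transcripts were at their higher level in 1 of the 4 highland and 3 of the 4 lowland libraries. Both Linzhi Tibetan libraries were low and both Chahua libraries high in them, so a term for their level rests mainly on Lhasa White and White Leghorn. With that term in the fit the log2 difference of STC2 was 0.61, and the part of sex was not tested. Without Lhasa White 2 and Chahua 2 the log2 difference was 0.55.

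EDN1, the precursor of the vasoconstrictor endothelin 1, was the least abundant of the genes. The Linzhi Tibetan libraries held 8.43 and 7.72 RPKM, those of Lhasa White 5.16 and 7.08, those of Chahua 6.17 and 7.83, and those of White Leghorn 4.09 and 3.48. White Leghorn was below the other 3 breeds in both libraries, and those 3 breeds overlapped in part. This split was noticed in the values, and the share of all genes that show it was not counted. Highland libraries averaged 7.10 ± 1.41 RPKM and lowland libraries 5.39 ± 1.99 (SD, n = 4), with overlap (log2 difference 0.38, 95% interval 0.03 to 0.72, limma adjusted p = 0.999). Between Linzhi Tibetan and White Leghorn the log2 difference was 0.92 (SE 0.206, limma adjusted p = 0.641), and between Chahua and White Leghorn it was 0.74 (SE 0.206, limma adjusted p = 0.52). Endothelial marker genes, all 19 of the 20 listed that have a row being at 1 RPKM or more in every library, summed to 706 to 846 RPKM in highland and 678 to 737 in lowland libraries. Their part in the level of EDN1 was not tested.

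ADM, the precursor of the vasodilator peptide adrenomedullin, had the widest differences between breeds. The Lhasa White libraries gave 35.6 and 56.3 RPKM and those of Chahua, on the lowland side, 21.3 and 37.7. The Linzhi Tibetan libraries gave 11.2 and 10.1 RPKM and those of White Leghorn 12.01 and 12.9. The 4 libraries of Lhasa White and Chahua were thus above the 4 of the other breeds, as were those of 2.48% of genes tested, a grouping noticed in the values and not one of the study's. Lhasa White and Chahua overlapped with each other, and both Linzhi Tibetan libraries lay below both White Leghorn libraries. The share of all genes with that last split was not counted. The log2 difference of Linzhi Tibetan from Lhasa White was -1.98 (SE 0.297, limma adjusted p = 0.358) and from Chahua -1.34 (SE 0.297, limma adjusted p = 0.573). Lhasa White differed from White Leghorn by 1.77 (SE 0.297, limma adjusted p = 0.627) and Chahua from White Leghorn by 1.13 (SE 0.297, limma adjusted p = 0.48). Highland and lowland libraries overlapped, with a log2 difference of 0.21 (95% interval -0.28 to 0.71, limma adjusted p = 0.999) that was 0.02 without Chahua 1 and 0.05 without Lhasa White 2.

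ADM was also higher in the library of each pair that was high in MYH7, 1.58 times higher in Lhasa White 2 than in Lhasa White 1 and 1.77 times higher in Chahua 2 than in Chahua 1. In the other breeds the ratio of library 2 to library 1 was 0.906 and 1.08. Lhasa White 1 and Chahua 1 had MYH7 at 7.07 and 1.03 RPKM. The part of atrial transcripts in the level of ADM was not tested. The 13 listed atrial markers, 11 with a row and none at 0 in any library, summed to 2326 to 3913 RPKM in highland and 1575 to 2843 in lowland libraries. NPPA, which did not follow MYH7, weighs heavily in this sum. It gave 2717 of 2950 RPKM in Linzhi Tibetan 2, 2419 of 2843 in Chahua 2 and 1690 of 3913 in Lhasa White 2.

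The mitochondrial genes showed no split between highland and lowland breeds. BNIP3, a receptor that draws mitochondria into autophagosomes, had 133 and 112 RPKM in the Linzhi Tibetan libraries, 122 and 75.01 in those of Lhasa White, 117 and 125 in those of Chahua, and 106 and 107 in those of White Leghorn. Lhasa White 2 was the low library, at 0.614 of the level of Lhasa White 1, and it was also the library with the lowest cardiomyocyte sum. The other 7 libraries lay between 106 and 133 RPKM. Highland and lowland means were 111 ± 25.1 and 114 ± 8.86 RPKM (SD, n = 4), a log2 difference of -0.07 (95% interval -0.43 to 0.30, limma adjusted p = 0.999). Without Lhasa White 2 the direction turned, to 0.11.

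BNIP3L is the close relative of BNIP3 that in mammals also clears mitochondria from maturing red cells. BNIP3L had 34.7 and 34.3 RPKM in the Linzhi Tibetan libraries, 45.8 and 47.9 in those of Lhasa White, 35.2 and 50.5 in those of Chahua, and 38.6 and 37.4 in those of White Leghorn. Lhasa White 1, Lhasa White 2 and Chahua 2 were high, and the other 5 libraries lay close together. The log2 difference of Linzhi Tibetan from Lhasa White was -0.43 (SE 0.175, limma adjusted p = 0.627). Highland and lowland means were 40.7 ± 7.18 and 40.4 ± 6.86 RPKM (SD, n = 4), a log2 difference of 0.01 (95% interval -0.28 to 0.30, limma adjusted p = 0.999) that was -0.02 with median ratio scaling or quantile normalization. The ratio of BNIP3 to BNIP3L ran from 1.57 in Lhasa White 2 to 3.83 in Linzhi Tibetan 1, so BNIP3 was the higher per length in 8 of 8 libraries. Globin and other blood markers, 10 of 19 listed with a row, summed to 4979 to 21806 RPKM in highland and 6969 to 16884 in lowland libraries. One blood marker row was at 0 in some library, and their part in the level of BNIP3L was not tested.

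PDK1, which phosphorylates and inactivates pyruvate dehydrogenase and so turns pyruvate away from the mitochondria, had 74.8 and 76.0 RPKM in the Linzhi Tibetan libraries, 90.8 and 72.5 in those of Lhasa White, 76.1 and 114 in those of Chahua, and 74.3 and 85.4 in those of White Leghorn. Chahua 2 was the high library, 1.498 times Chahua 1, and no breed stood clear of its neighbour in the order of means. Highland libraries averaged 78.5 ± 8.34 RPKM and lowland libraries 87.4 ± 18.3 (SD, n = 4), a log2 difference of -0.14 (95% interval -0.49 to 0.21, limma adjusted p = 0.999). The direction turned without Chahua 2, to 0.01.

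**Figure D2:**
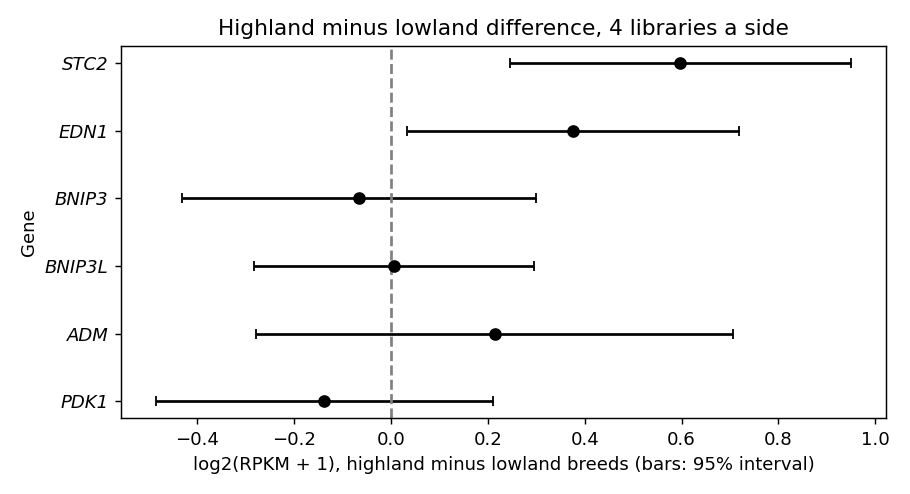
Difference in log2(RPKM + 1) between highland and lowland breeds for the 6 genes, with 95% intervals from limma before adjustment for the number of genes. The intervals of STC2 (0.24 to 0.95) and EDN1 (0.03 to 0.72) lie above 0, and those of the other 4 genes include it. The intervals rest on the spread within breeds, and the highland and lowland libraries of EDN1 overlapped.

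Across the tests, 0 of the 6 genes passed between highland and lowland breeds at a limma adjusted p of 0.05, where 0.00865% of all genes did (1 of 11556). At an unadjusted limma p under 0.05 there were 2 of 6, STC2 and EDN1, against 3.13% of all genes. With 4 genes higher and 2 lower in highland breeds, the median log2 difference of the 6 was 0.11, and that of all genes tested was 0.03. Over the 6 pairs of breeds 0 calls were made among the 6 genes by limma's adjusted p, with 0.00865% of genes called between Lhasa White and Chahua and 0% in each of the other pairs. At an unadjusted limma p under 0.05 there were 2 of the 6 genes between Linzhi Tibetan and Lhasa White (7.81% of all genes), 2 against Chahua (7.06%) and 1 against White Leghorn (6.14%). Lhasa White gave 1 against Chahua (5.18%) and 3 against White Leghorn (4.04%), and Chahua against White Leghorn gave 2 (7.87%). A moderated F test for any difference among breeds called 0 of the 6 genes, as it did 0% of all genes, and 3 of 6 had an unadjusted p under 0.05 (6.52% of all genes). Those 3 were ADM (limma adjusted p = 0.377), EDN1 (0.632) and STC2 (0.701). These contrasts share libraries and are not independent of each other. Voom on the recovered reads also called 0 of the 6 genes in each of these comparisons.

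The 6 genes did not rise and fall as a block. Lhasa White 1 and Chahua 2 had 5 of the 6 genes above their own means, Lhasa White 2 had 4, both Linzhi Tibetan libraries and Chahua 1 had 3, White Leghorn 2 had 1, and White Leghorn 1 had 0. The mean deviation over the 6 genes ran from -0.29 on the log2 scale in White Leghorn 2 to 0.27 in Lhasa White 1. Within libraries the genes parted. In Lhasa White 2, ADM was at its highest while BNIP3 and PDK1 were at their lowest. In Chahua 2, BNIP3L and PDK1 were at their highest and STC2 at its lowest. Linzhi Tibetan 1 held the highest EDN1 and BNIP3 but low ADM.

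**Figure D3:**
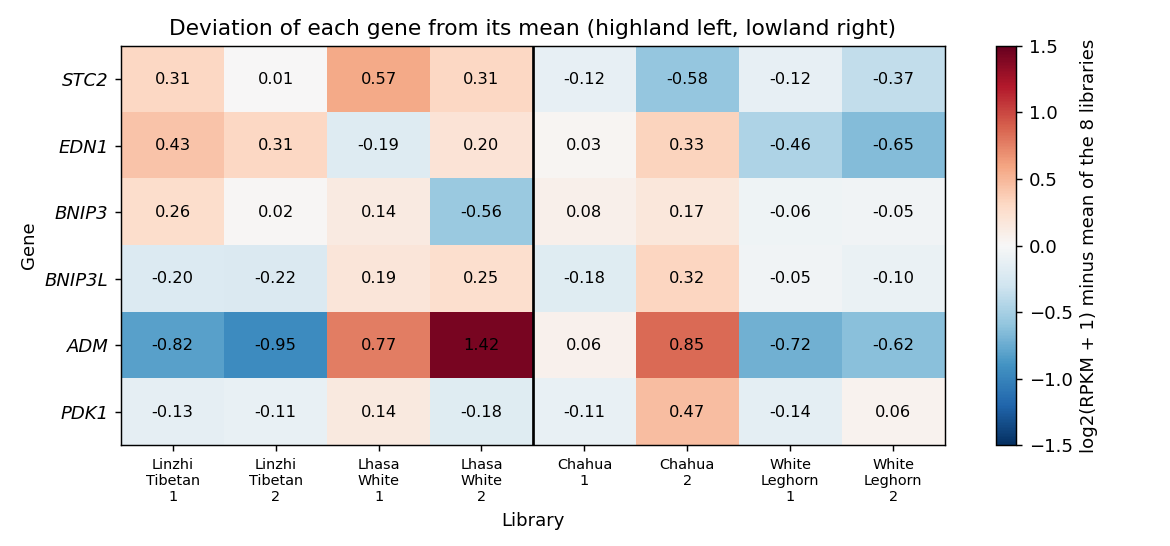
Deviation of log2(RPKM + 1) of each gene from its mean over the 8 libraries, with highland libraries left and lowland libraries right of the line. ADM spans -0.95 in Linzhi Tibetan 2 to 1.42 in Lhasa White 2, and no column has all 6 genes above their means.

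Of the 15 pairs that the 6 genes form, 10 had a positive Pearson correlation over the 8 libraries and 5 a negative one, with a median r of 0.142 (66.7% of pairs positive, against 54.1% of the correlations of these genes with all genes tested). None of the 15 passed an exact permutation test after Benjamini-Hochberg adjustment (adjusted p 0.126 to 0.989), and 1 had an unadjusted permutation p under 0.05. That pair was BNIP3L and ADM (Pearson r = 0.883, exact permutation p = 0.00841, adjusted p = 0.126, and Spearman rho = 0.881, exact permutation p = 0.00724, adjusted p = 0.109). Of all genes tested, 1.19% had a higher r with BNIP3L than ADM had. The 2 libraries farthest from the median of BNIP3L were Chahua 2 and Lhasa White 2, the libraries high in MYH7, and without them r was 0.77 (n = 6, exact permutation p = 0.0708). BNIP3L and ADM were higher in the same library of the pair in 3 of 4 breeds. This count did not set them apart. It was also 3 for EDN1 and ADM, BNIP3 and PDK1, and BNIP3 and ADM, and 4 for EDN1 and BNIP3L. Libraries of the same breed enter each r together, so its points are not fully independent. Taken over deviations from breed means, r was highest for EDN1 and ADM, at 0.873, against 0.205 over the 8 libraries. BNIP3L and ADM came next, and STC2 and ADM were lowest, at -0.764. These values were not tested.

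Other pairs had a weaker r over the 8 libraries, and r changed with the libraries kept. BNIP3 and ADM had r = -0.431 (exact permutation p = 0.302, adjusted p = 0.905). Without Lhasa White 2 and Linzhi Tibetan 1 it was 0.904 (exact permutation p = 0.0278), and without Lhasa White 2 and Chahua 2 it was 0.253 (exact permutation p = 0.632). BNIP3L and PDK1 had r = 0.616 (exact permutation p = 0.0827, adjusted p = 0.62) but a Spearman rho of 0.238 (exact permutation p = 0.582, adjusted p = 0.977), and without Chahua 2 and Lhasa White 2 r was 0.794 (exact permutation p = 0.0625). STC2 and PDK1 had the lowest r, -0.472 (exact permutation p = 0.244, adjusted p = 0.905, rho = -0.429 with exact permutation p = 0.299). It was -0.782 without Lhasa White 1 and Chahua 2, the libraries farthest from the median of STC2 (exact permutation p = 0.0236), and 0.315 without Lhasa White 2 and Chahua 2 (exact permutation p = 0.519), so its sign rested on which libraries were kept. BNIP3 and BNIP3L, the related pair, had r = -0.317 (exact permutation p = 0.504, adjusted p = 0.962, rho = -0.143 with exact permutation p = 0.752). This was 0.685 without Lhasa White 2 and Linzhi Tibetan 1, the libraries farthest from the median of BNIP3 (exact permutation p = 0.146), and -0.0098 without Lhasa White 2 and Chahua 2 (exact permutation p = 0.985). STC2 and EDN1, which were both higher on average in highland libraries, had r = 0.177 (exact permutation p = 0.666, adjusted p = 0.962, rho = 0.0952 with exact permutation p = 0.84), with r = 0.838 without Lhasa White 1 and Chahua 2 (exact permutation p = 0.05) and 0.474 without Lhasa White 2 and Chahua 2 (exact permutation p = 0.34).

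**Figure D4:**
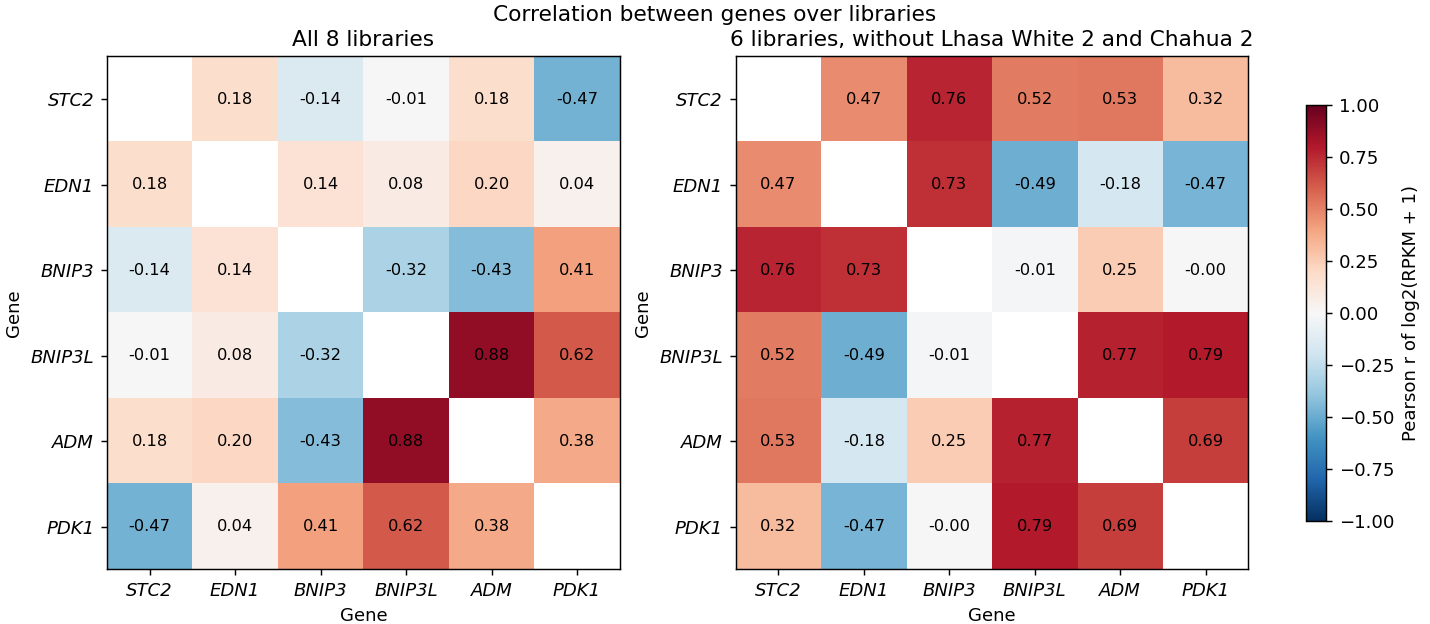
Pearson r of log2(RPKM + 1) between the 6 genes over all 8 libraries (left) and over the 6 libraries without Lhasa White 2 and Chahua 2 (right). BNIP3L and ADM have r = 0.883 on the left and 0.77 on the right, and several other pairs change sign, such as STC2 and PDK1 from -0.472 to 0.315.

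Genes with the most similar profile over the 8 libraries were sought among all genes tested with a symbol, as a description of these libraries. For ADM they were DNAJA4, a cochaperone (r = 0.979), TMEM263 (r = 0.972) and LGALS1, which encodes a galectin (r = 0.972). LGALS1 had 16.6 and 32.5 RPKM in the Lhasa White libraries, 12.9 and 17.2 in those of Chahua, and 7.70 to 9.53 in the remaining 4. BNIP3L was closest to TIRAP, an adaptor of Toll-like receptors (r = 0.966), YAP1, a growth co-activator (r = 0.962), and HSPA4L, a heat shock protein (r = 0.961). For BNIP3 they were TAX1BP3 (r = 0.967), PDK3, a sister kinase of PDK1 (r = 0.957), and NLGN4, a neuroligin (r = 0.934). PDK3 and BNIP3 shared the low value in Lhasa White 2, where PDK3 was at 46.8 RPKM, against 67.0 to 85.8 in the other libraries. PDK1 was closest to MYL2 (ENSGALG00000004582, r = 0.952), a ventricular myosin light chain, LLGL2 (r = 0.942) and RAP1GAP (r = 0.939). They shared with PDK1 the high value in Chahua 2. There MYL2 was at 9466 RPKM, LLGL2 at 12.2 and RAP1GAP at 28.2, against 6245 to 7273, 7.68 to 9.39 and 14.3 to 17.3 in the other libraries. EDN1 was closest to SLAIN2, a microtubule factor (r = 0.982), IL13RA1, an interleukin receptor (r = 0.976), and AGTRAP, which binds the angiotensin receptor (r = 0.961). STC2 was closest to IL17RC (r = 0.942), a small nuclear RNA row named U5 (r = 0.907), which stayed at or below 1.30 RPKM, and TPD52L2 (r = 0.903). IL17RC moved over a much narrower range than STC2, from 34.0 to 37.9 RPKM. SLAIN2 likewise moved over a narrower range than EDN1, from 11.9 to 13.5 RPKM against 3.48 to 8.43.

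Several of the partners through which these genes act had transcripts in the same hearts, while ECE1 of the endothelin list had no row. For endothelin, the receptors EDNRA and EDNRB averaged 64.8 and 86.7 RPKM, well above the ligands EDN1, EDN2 (1.79 RPKM) and EDN3 (1.95 RPKM). EDN2 was highest in Lhasa White 2, at 5.60 RPKM, with 0.704 to 2.12 elsewhere. EDNRB was lowest in Chahua 2, at 53.5 RPKM, with 78.4 to 113 elsewhere. Of the endothelin list, 6 of 9 genes were tested, 5 higher and 1 lower in highland libraries, and 0 passed (median log2 difference 0.12, against 0.03 for all genes). The smallest p-values beside EDN1 belonged to EDN2, with a log2 difference of 0.67, ECE2, an endothelin-converting enzyme, with 0.14, and EDNRB with 0.10 (limma adjusted p = 0.999 each), which was -0.24 without Lhasa White 2 and Chahua 2. Without Lhasa White 2 the values of EDN2 and ECE2 were 0.24 and 0.04, and without Lhasa White 1 they were 1.11 and 0.24.

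The adrenomedullin receptor is CALCRL joined to RAMP2 or RAMP3. CALCRL averaged 11.8 RPKM, RAMP2 59.4 and RAMP3 1.97. RAMP2 kept to 52.9 to 65.6 RPKM over the libraries in which ADM ranged from 10.1 to 56.3. CALCRL lay at 21.5 RPKM in Chahua 2 and 8.08 to 15.9 elsewhere. Of the adrenomedullin list, 9 of 12 genes were tested, 8 higher and 1 lower in highland libraries, and 0 passed (median 0.18, against 0.03 for all genes). Those with the smallest p beside ADM were PAM, the enzyme that amidates the peptide (9.80 ± 1.15 and 7.55 ± 1.93 RPKM, SD, n = 4), CALCA, with a log2 difference of 0.40, and CXCR7, a scavenging receptor, with 0.19 (limma adjusted p = 0.999 each). CXCR7 was 0.06 without Lhasa White 2 and 0.32 without Lhasa White 1, and CALCA was 0.23 without Linzhi Tibetan 2 and 0.27 without Chahua 1.

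STC1, the sister of STC2, was low, at 0.353 to 2.64 RPKM, and so was PAPPA at 0.562 to 2.19 RPKM. IGFBP4, a substrate of that protease in mammals, was highest in Lhasa White 2, at 70.7 RPKM, followed by the Chahua libraries at 41.6 and 43.6, with 14.2 to 17.5 in the remaining 5. Of the stanniocalcin list, 5 of 6 genes were tested, 4 higher and 1 lower, and 0 passed (median 0.08, limma adjusted p = 0.999 each). The log2 differences of PAPPA, STC1 and IGFBP4 were 0.21, 0.08 and -0.07, and those of STC1 and IGFBP4 changed sign when single libraries were left out. Without Lhasa White 2 and Chahua 2 the split was 3 higher and 2 lower and the list's median 0.26. PAPPA was 0.04 without Chahua 1, 0.13 without Linzhi Tibetan 1 and 0.37 without Chahua 2.

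The pyruvate dehydrogenase list, which holds PDK1, its sister kinases, the phosphatases and the complex itself, was lower in highland libraries for all 11 genes tested of 14 listed, and 0 passed. Its median log2 difference was -0.15, against 0.03 for all genes, of which 4849 of 11556 were lower. Without Lhasa White 2 and Chahua 2, 9 of the 11 were lower and the median was -0.10. The smallest p-values belonged to the phosphatase PDP1, with a highland mean of 9.55 ± 1.58 RPKM and a lowland mean of 11.9 ± 1.98, PDHB, a subunit of the complex, at 161 ± 21.8 and 185 ± 9.43, and DLAT, another subunit, at 66.1 ± 6.21 and 73.1 ± 3.08 (SD, n = 4, limma adjusted p = 0.999 each). The log2 difference of PDHB, -0.21, was -0.11 without Linzhi Tibetan 1. Of the kinases with a row, PDK1, PDK3 and PDK4 averaged 82.98, 72.9 and 68.2 RPKM. PDK4 was the most variable of them, at 156 RPKM in Chahua 2, 118 in Linzhi Tibetan 1 and 29.3 in Lhasa White 2.

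Of the mitophagy list, 21 of 23 genes were tested, 9 higher and 12 lower, and 0 passed (median -0.02). Without Lhasa White 2 and Chahua 2 the split was 13 higher and 8 lower, with a median of 0.04. SQSTM1, an autophagy receptor, stood at 92.5 ± 21.2 and 70.5 ± 6.32 RPKM in highland and lowland libraries (SD, n = 4), with 124 RPKM in Linzhi Tibetan 1. Its lowest highland value, 80.6 RPKM, was above its highest lowland value, 75.3 RPKM, a split shown by 0.935% of all genes tested. BCL2, a survival factor, and GABARAPL1, which coats autophagosomes, had log2 differences of 0.38 and -0.19 (limma adjusted p = 0.999 each). The log2 difference of SQSTM1, 0.37, was 0.21 without Linzhi Tibetan 1, that of BCL2 was 0.22 without Lhasa White 2 or without Chahua 1, and that of GABARAPL1 was -0.11 without Lhasa White 1. For mTORC1, the complex that DDIT4 restrains, 13 of 19 genes were tested, 8 higher and 5 lower, and 0 passed (median 0.06). TBC1D7, a subunit of the TSC complex, had the smallest p, with a highland mean of 8.68 ± 1.49 RPKM and a lowland mean of 12.2 ± 2.09 (SD, n = 4, log2 difference -0.45, limma adjusted p = 0.999). SESN1, a sestrin, and PRKAA1, a catalytic subunit of the energy sensor AMPK, followed with 0.19 and 0.16 (limma adjusted p = 0.999 each). SESN1, at 54.8 RPKM in Linzhi Tibetan 1 and 30.5 to 33.9 elsewhere, was 0.01 without that library and 0.37 without Linzhi Tibetan 2, and PRKAA1 was 0.03 without Chahua 1 and 0.29 without Chahua 2.

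Other genes that low oxygen acts on gave no call. Of 46 further non-glycolytic targets, 34 were tested, 17 higher and 17 lower in highland libraries, and 0 passed, with a median of 0.01. At an unadjusted limma p under 0.05 there were 3 of the 34, against 3.13% of all genes. PLOD1, a collagen lysyl hydroxylase, stood at 64.5 ± 3.88 and 54.3 ± 2.05 RPKM in highland and lowland libraries, LOX, a collagen cross-linker, at 69.6 ± 20.4 and 46.7 ± 8.33, and ANGPTL4, a lipase inhibitor, at 7.56 ± 1.98 and 4.797 ± 1.28 (SD, n = 4, limma adjusted p = 0.999 each). PLOD1 was higher in every highland library than in every lowland one, as were 0.935% of all genes tested. VEGFA had a log2 difference of -0.13, which was -0.05 without Lhasa White 2 and -0.20 without Lhasa White 1. Those of LOX and ANGPTL4, 0.54 and 0.56, were 0.29 and 0.35 without Lhasa White 2. LOX was at 97.4 RPKM in Lhasa White 2, the library with the highest matrix sum, a sum that includes LOX itself. Of 22 oxygen-sensing genes, 15 were tested, 9 higher and 6 lower, and 0 passed (median 0.03). EPAS1, HIF1A and EGLN1 had log2 differences of 0.04, 0.18 and -0.04, and CREBBP, EP300 and EGLN3, the members with the smallest p, 0.17, 0.14 and 0.18 (limma adjusted p = 0.999 each). The signs for EPAS1, HIF1A and EGLN1 each turned when a single library was left out. EGLN3 was 0.04 without Chahua 1 and 0.33 without Chahua 2, CREBBP 0.08 without Linzhi Tibetan 1 and 0.27 without Linzhi Tibetan 2, and EP300 0.06 without Chahua 2.

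**Figure D5:**
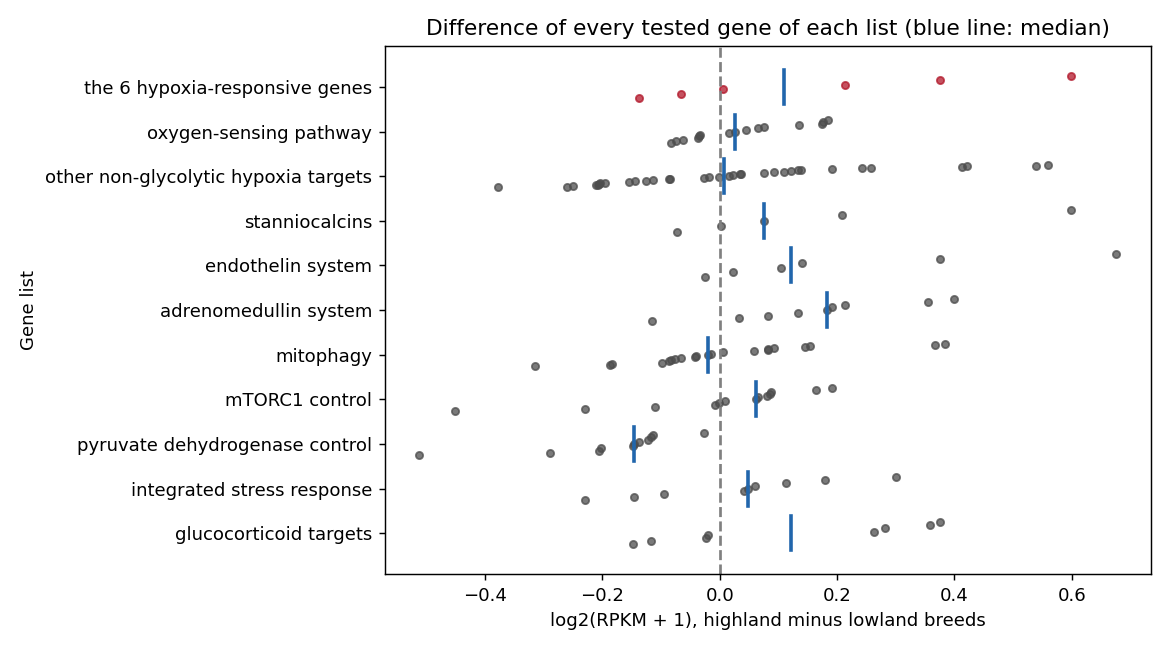
Difference in log2(RPKM + 1) between highland and lowland breeds for each tested gene (points) of the 6 genes in red and of 10 related lists in grey, with list medians as blue lines. The points of the pyruvate dehydrogenase list all lie below 0, with a median of -0.15, and no point of any list passed the test across all genes.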

How the data were processed

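Per the labels' protocols, embryonic hearts gave TRIzol-extracted RNA that went into Illumina mRNA libraries. The authors deposited RPKM values for 15873 Ensembl genes, per the file headers. The submitters' processing notes name BWA, without a version. Genome build, gene models, counting, filters and strand use: not given in the sources used here, and no coordinates are printed. Within a gene, deposited RPKM values step by the worth of 1 read. Fitted library totals made 99.99% of genes whole in every library within 0.05 reads, against 3 of 1000 control genes with totals shifted between libraries.

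The test took 11556 genes reaching an RPKM of 1 in 2 or more libraries, all 6 described genes among them. Values were transformed to log2(RPKM + 1), so differences understate the change of low genes. Limma 3.58.1 under R 4.3.3 fitted 1 mean per breed to the 8 libraries, with a variance trend, 4 residual degrees of freedom and Benjamini-Hochberg adjustment over all genes, at a threshold of 0.05. Python 3.11.15 with SciPy 1.17.1 ran the permutation tests. On simulated data for highland against lowland breeds (11348 genes), 82 of 100 genes changed 2-fold and 99 of 100 changed 4-fold were recovered. There were 14 calls among unchanged genes. The 200 changed genes were drawn above a minimum level, with independent noise and no libraries that stand apart. Adjustment is stricter where fewer genes change, so these shares do not carry over to the real data, where 1 of 11556 genes was called. The genes and lists were chosen with earlier results of these data known. Named list genes are the 3 with the smallest p per list and EPAS1, HIF1A, EGLN1 and VEGFA. Receptors and sister genes were named for their role, after their values were seen. The atrial list holds BMP10 under the symbol BMP-10.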

Additional observations from a re-analysis of the deposited data

How the results depend on the processing

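With all 8 libraries kept, the 6 genes gave 0 calls between highland and lowland breeds, among breed pairs and in the F test under every alternative. The lowest limma adjusted p of any of them was then 0.247, for ADM between Linzhi Tibetan and Lhasa White with median ratio scaling. The log2 difference of ADM between these breeds was -2.30 without Lhasa White 1 and -1.65 without Lhasa White 2. The count over all genes between highland and lowland breeds, 1, was 0 without the low-value filter, with voom on recovered reads, with the replicate block, with a covariate for W-linked level, without Lhasa White 2 and Chahua 2 (the libraries high in the atrial gene MYH7) and with 2 groups of 4, and 0 to 1 when 1 library was left out. The log2 difference of STC2 was 0.48 to 0.71 and that of EDN1 0.28 to 0.47 over the omissions of 1 library, and ADM ran from 0.02 (without Chahua 1) to 0.41. Directions turned for BNIP3 (0.13 without Lhasa White 2 and Chahua 2, -0.24 to 0.11 over omissions), PDK1 (0.09 without the same libraries, -0.28 to 0.01), BNIP3L (-0.02 with median ratio scaling, -0.02 with quantile normalization, -0.12 to 0.13), EDNRB (-0.24 without Lhasa White 2 and Chahua 2, -0.12 to 0.33), EGLN1 (0.00 with the W-linked covariate, -0.10 to 0.03), EPAS1 (-0.10 to 0.19), HIF1A (-0.02 to 0.38), IGFBP4 (0.36 with the W-linked covariate, -0.56 to 0.42) and STC1 (-0.26 to 0.41); the cause was not tested. Pairs with r above 0 numbered 8 to 11 over the omissions. Replicate numbers are not said to mark shared batches, and deviations of same-numbered libraries correlated at -0.332 to 0.17 over genes. Such values cannot decide whether the numbers mark a batch, and the main fit did not pair by them. STC2 was lower in library 2 than in library 1 of each breed, at 0.707 to 0.831 of its level. With the replicate block 0 of the 6 genes passed. With the W-linked covariate the log2 difference was 0.51 for EDN1, 0.32 for ADM, -0.22 for BNIP3, -0.27 for PDK1 and 0.03 for BNIP3L. The count of pyruvate dehydrogenase genes without Lhasa White 2 and Chahua 2 was chosen after seeing the data. Depth limits EDN1 most, at 153 to 385 reads a library.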

Other observations

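STC2 is also known in mammals as a target of the integrated stress response, which acts through the transcription factor ATF4, and DDIT4 as a target of glucocorticoids. Of 20 stress response genes, 9 were tested, 6 higher and 3 lower in highland libraries, and 0 passed limma's adjusted test (median log2 difference 0.05, against 0.03 for all genes). ATF4 had a highland mean of 344 ± 18.0 RPKM and a lowland mean of 304 ± 31.9 (SD, n = 4), from 260 RPKM in Chahua 2 to 363 in Linzhi Tibetan 2. PHGDH, the first enzyme of serine synthesis, was highest in the Lhasa White libraries, at 13.2 and 11.8 RPKM, with 6.49 to 8.49 elsewhere. ASNS, asparagine synthetase, had 9.96 and 8.43 RPKM in the Lhasa White libraries, 10.6 and 9.65 in those of White Leghorn, and 5.07 to 7.04 in the remaining 4.

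Of 11 glucocorticoid targets, 8 were tested, 4 higher and 4 lower, and 0 passed (median 0.12). TSC22D3 was at 145 RPKM in Linzhi Tibetan 1 and 45.1 to 74.0 in the other libraries. KLF9 was at 3.83 RPKM in Linzhi Tibetan 1 and 0.853 to 2.95 in the others. SGK1 was highest in Lhasa White 2, at 54.3 RPKM, with 26.7 to 42.5 elsewhere.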
